A study of Mus musculus with 9 samples.

Results

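The translation initiation factors described here are the probe sets that the array's annotation assigns to a single gene symbol beginning with Eif1 to Eif6, without the eIF2 kinases. They number 120 of the 45101 probe sets on the array and stand for 43 of the 18194 genes named by a single symbol. Of them, 104 probe sets for 42 genes passed the filter on signal, and 16 probe sets did not, among them the only single-symbol probe set for Eif4a3. None of the 120 probe sets stood for Eif1, Eif2s1, Eif3g, Eif4g1 or Eif4e1b.

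The arrays measured total RNA of preparations labelled as spermatogonia, the mitotic germ cells of the testis, from adult Balb/C mice. In the VAD 25 wk group the mice had eaten a vitamin A-deficient (VAD) diet for 25 weeks, in the VAD 18 wk group for 18 weeks, and in the control group a normal diet, with 3 arrays a group. Each preparation pooled the testes of 2 mice, the cells were separated by size in a sedimentation gradient after a night in culture, and purity was stated to exceed 90%. The age of the control mice and whether every array held its own preparation are not stated, so the p-values measure only the spread between these samples, which may be technical.

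Translation of most mRNAs begins when eIF4E binds the 5′ cap, eIF4G bridges it to the small ribosomal subunit through eIF3, and the helicase eIF4A opens the leader. The small subunit carries initiator tRNA bound to eIF2 and GTP, scans to the start codon under the control of eIF1, eIF1A and eIF5, and is then joined by the large subunit with the help of eIF5B. Recycling of eIF2 by eIF2B and sequestration of eIF4E by its binding proteins are the main regulated steps. In the testis, post-meiotic germ cells store many mRNAs for later translation, and several initiation factors have germ cell paralogs.

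The promoter windows of 5 genes with called probe sets follow. Eif4h, Eif5 and Eif3a had the smallest adjusted p among higher calls at 25 weeks, and Eif3b among lower calls. Eif3k had a larger limma adjusted p than Eif4e2 (0.0208 against 0.0195), whose window is not shown. The windows were chosen after the values of these genes were seen. They are RefSeq sequences on GRCm38.p6, 250 bases before to 50 bases after the annotated start, 5′ to 3′ on the strand of the gene, and capitals mark CACGTG, the E-box bound by MYC and USF proteins, which reads the same on both strands. Eif5 lies at chr12:111537851-111538150 on the plus strand, Eif3a at chr19:60790644-60790943 on the minus strand and Eif4h at chr5:134639360-134639659 on the minus strand. Eif3b lies at chr5:140419055-140419354 on the plus strand and Eif3k at chr7:28981839-28982138 on the minus strand.
Eif5: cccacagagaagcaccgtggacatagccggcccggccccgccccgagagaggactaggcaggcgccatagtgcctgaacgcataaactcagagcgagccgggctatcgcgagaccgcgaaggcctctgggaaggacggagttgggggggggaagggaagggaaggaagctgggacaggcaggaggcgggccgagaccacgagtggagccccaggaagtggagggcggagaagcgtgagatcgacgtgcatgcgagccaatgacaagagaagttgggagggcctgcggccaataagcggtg
Eif3a: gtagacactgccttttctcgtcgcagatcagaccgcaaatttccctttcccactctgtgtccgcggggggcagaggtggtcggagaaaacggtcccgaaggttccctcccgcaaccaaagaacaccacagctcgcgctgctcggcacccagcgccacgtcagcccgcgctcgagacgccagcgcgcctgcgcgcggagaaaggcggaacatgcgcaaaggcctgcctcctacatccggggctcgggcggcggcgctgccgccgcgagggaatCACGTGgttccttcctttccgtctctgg
Eif4h: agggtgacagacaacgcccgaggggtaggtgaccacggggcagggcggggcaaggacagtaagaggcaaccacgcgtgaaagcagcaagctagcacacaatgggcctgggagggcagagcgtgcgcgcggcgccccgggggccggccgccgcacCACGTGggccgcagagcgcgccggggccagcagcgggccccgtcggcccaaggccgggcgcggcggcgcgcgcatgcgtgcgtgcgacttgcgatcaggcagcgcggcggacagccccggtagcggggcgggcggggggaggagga
Eif3b: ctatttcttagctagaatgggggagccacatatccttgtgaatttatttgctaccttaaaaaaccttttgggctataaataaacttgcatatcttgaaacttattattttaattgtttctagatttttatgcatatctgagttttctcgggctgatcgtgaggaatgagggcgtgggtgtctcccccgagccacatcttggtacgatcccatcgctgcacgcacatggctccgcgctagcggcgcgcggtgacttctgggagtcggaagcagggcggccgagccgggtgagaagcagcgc
Eif3k: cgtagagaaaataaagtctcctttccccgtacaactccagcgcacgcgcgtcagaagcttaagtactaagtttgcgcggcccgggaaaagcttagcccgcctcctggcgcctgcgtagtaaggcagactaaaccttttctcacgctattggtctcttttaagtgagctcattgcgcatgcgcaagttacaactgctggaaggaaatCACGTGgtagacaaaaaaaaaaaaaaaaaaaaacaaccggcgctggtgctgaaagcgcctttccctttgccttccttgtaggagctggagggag

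The E-box stood once in the Eif3a, Eif4h and Eif3k windows, starting at position 23 after the start in Eif3a, position -96 in Eif4h and position -44 in Eif3k. It was not in the Eif5 and Eif3b windows. Of the 34 initiation factor genes with a promoter entry, 7 held it (20.6%), against 7.24% of the 27025 genes with an entry, and the 7 were Eif1b, Eif3a, Eif3f, Eif3k, Eif4a1, Eif4h and Eif5a2. AGGTCA, the half-site of nuclear receptors such as the retinoic acid receptors, searched on both strands, was in 3 of the 34 (8.82%), namely Eif2b2, Eif2s3x and Eif4enif1, against 16% of all. The full cAMP response element TGACGTCA was in 0 of the 34, against 1.88% of all. These are matches of letters in a window and show no binding.

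Signals were not uniform across arrays. VAD 25 wk replicate 3 and control replicate 3, called the dim pair, were the dimmest arrays, with trimmed means of 23.16 and 22.86, and the remaining 7 ran from 55.22 to 185.5. Across normalized probe sets Pearson's r was 0.8891 within the pair, 0.776 to 0.8095 between a pair member and any array outside it, and 0.9354 to 0.9809 among the 7. VAD 25 wk replicates 1 and 2 had median signals of poly-A control transcripts of at least 129.6, against at most 7 elsewhere. The median deposited signal of the 120 members was 213.6, 158.8 and 34.3 on VAD 25 wk arrays, 113.5, 69.57 and 91.69 on VAD 18 wk arrays, and 59.56, 64.1 and 28.4 on control arrays. The model used here has a block for the dim pair, and with group alone 0 of 27022 probe sets passed in any of the 3 comparisons. Among the 104 members, that model gave 12 at an unadjusted p under 0.05 for VAD 25 wk over control, 4 for VAD 18 wk over control and 5 for VAD 25 wk over VAD 18 wk, with smallest adjusted p values of 0.236, 0.554 and 0.917. The shares of all probe sets at that unadjusted p were not computed. Unless said otherwise, the calls below come from the model with the block.

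Of the spermatogonial markers, 13 of 17 listed genes were measured, with a mean log2 level of 5.69 to 5.88 on control arrays. There pachytene markers, of meiotic spermatocytes, ran from 10.09 to 10.59, and markers of post-meiotic spermatids from 9.30 to 10.07. Signal of meiotic and post-meiotic germ cell markers was thus strong on control arrays, beside the stated purity. Levels of different probe sets are not directly comparable, and the shares of cell types were not tested. Markers of Sertoli cells, the somatic support cells of the tubule, were higher in 10 of 15 measured genes at 25 weeks (median log2 difference 1.76) and in 8 of 15 at 18 weeks (2.25). Their mean log2 level ran from 5.59 to 6.28 on VAD 25 wk arrays, 5.54 to 6.78 on VAD 18 wk arrays and 3.72 to 4.30 on control arrays. Leukocyte markers were higher in 5 of 7 at 25 weeks, with mean levels of 5.25 to 5.50 on VAD 25 wk arrays, 4.08 to 4.85 on VAD 18 wk arrays and 4.08 to 4.28 on control arrays. Leydig markers, of the steroid-producing interstitial cells, were higher in 2 of 5 at 25 weeks and in 0 of 5 at 18 weeks. Myoid markers passed in 0 of 4 at either time. At 25 weeks spermatid markers were lower in 6 of 16, pachytene markers higher in 3 and lower in 3 of 12, and spermatogonial markers higher in 2 and lower in 1 of 13. At 18 weeks pachytene markers were higher in 3 of 12, spermatogonial markers higher in 1 of 13 and spermatid markers lower in 1 of 16. With 1 probe set per gene, the share of all genes called was 17.1% at 25 weeks and 1.52% at 18 weeks. Without normalization between arrays 5 of the 6 spermatid calls at 25 weeks had the opposite sign (Tnp2 0.083, Acr 0.14, Odf2 0.31, Tssk1 0.20 and Zpbp 0.48) and only Crem stayed negative, at -0.10. The 3 lower pachytene calls turned as well (Ccna1 0.076, Hspa2 0.23 and Adam3 0.32), while the spermatogonial one, Dmrtb1, stayed negative at -0.26, and all higher marker calls stayed positive. No deposited signal was 0. The part of these marker differences in those of the initiation factors was not tested, and in these bulk samples fewer cells of a type and less RNA per cell cannot be told apart.

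At 25 weeks of the diet, 19 of the 104 initiation factor probe sets passed the test against control (18.3%), against 14.9% of all 27022 probe sets. Of these, 11 were higher (background 8.54%) and 8 lower (background 6.32%), so the members' share lay near that of the array as a whole. With the replicate number added as a further block 12 passed (11.5%, background 9.62%), 10 of them higher and 2 lower. The 19 probe sets called without the replicate block belonged to 14 genes, 7 with higher calls alone, 6 with lower calls alone, and Eif4h with both. The median log2 difference of the 104 was 0.04, against -0.01 for all probe sets. Taking 1 probe set per gene, 10 of 42 passed at 25 weeks (23.8%), against 17.1% of 13616 genes, and 1 of 42 at 18 weeks (2.38%), against 1.52%. Eif4h counts as lower at 25 weeks there, through 1447070_at (-1.59), while 3 of its 5 kept probe sets were called higher. At 18 weeks 2 of the 104 passed, both higher (1.92%, background 1.47%, and 1.33% for higher calls), and between the 2 diet times none did (background 0%).

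**Figure D1:**
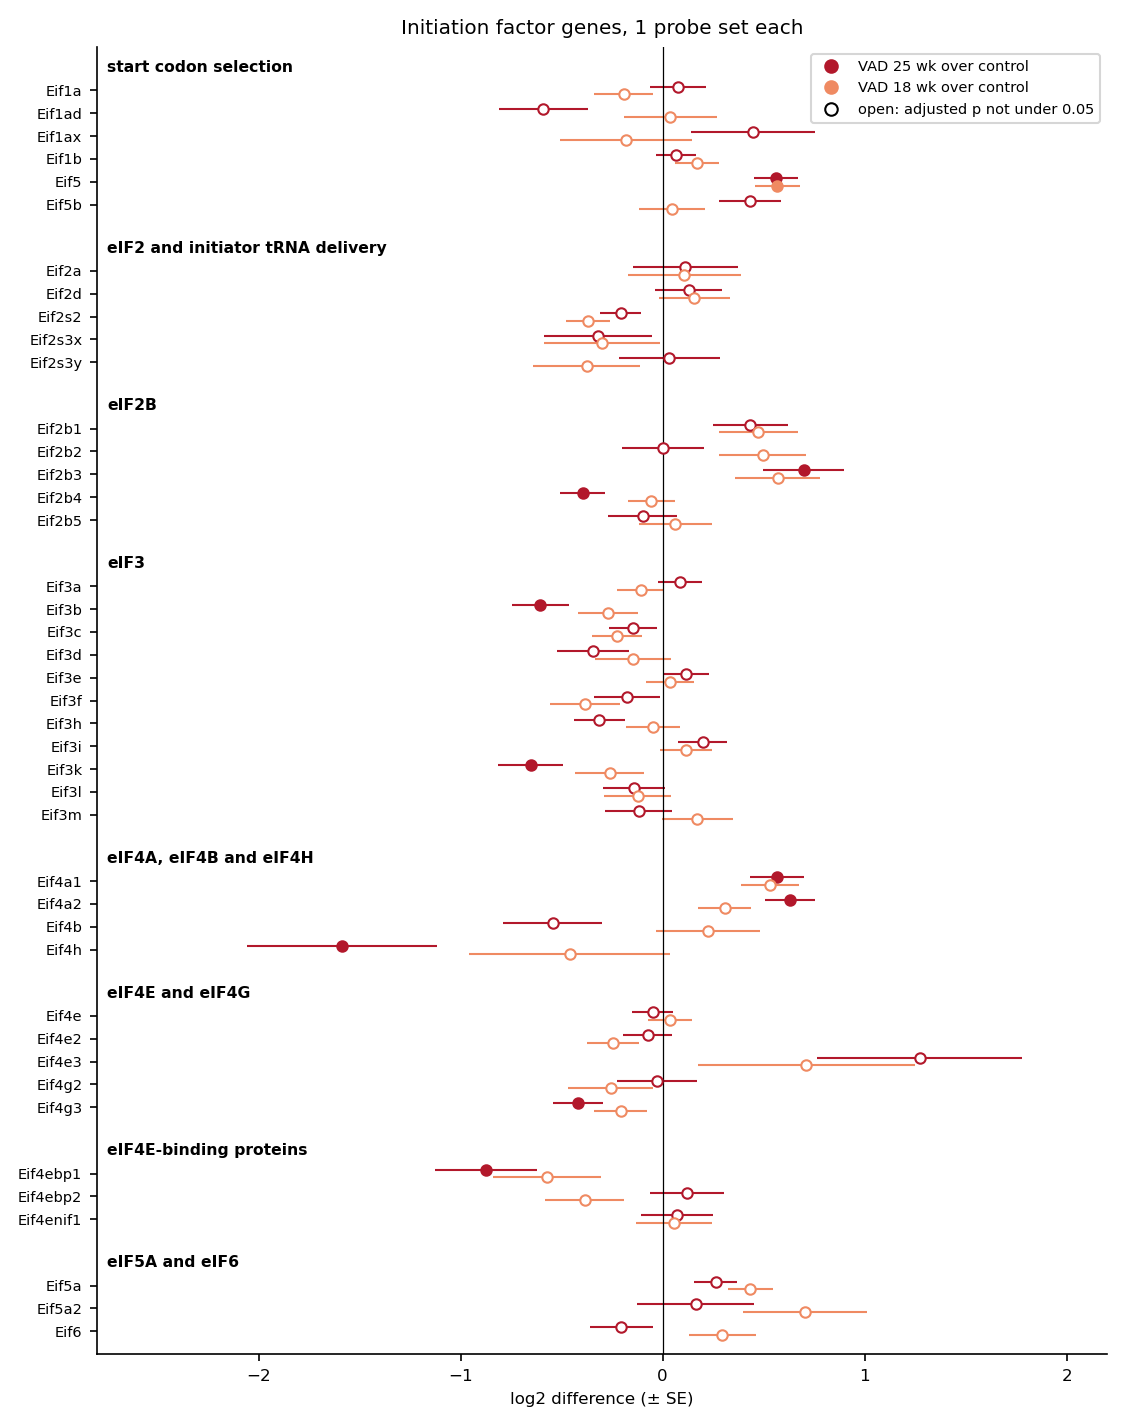
Log2 difference over control with its standard error for 1 probe set per initiation factor gene (the brightest kept one, probe sets ending in _x_at or _s_at used last), grouped by role. Red is VAD 25 wk, orange VAD 18 wk, and filled points passed an adjusted p of 0.05. At 25 weeks 10 of the 42 genes pass, on both sides of 0, and at 18 weeks 1 passes, Eif5. Eif4h is shown by 1447070_at, called lower at 25 weeks (-1.59), while 3 of its 5 kept probe sets were called higher.

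Values below are normalized log2 signals, comparable between arrays for a probe set and not between probe sets. Differences are fitted with the block, given with the standard error. The VAD 25 wk and control groups each hold an array of the dim pair, so their difference equals that of the group means. The VAD 18 wk group holds none, so a difference with it is shifted by the block and is not the difference of plain means.

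Among the factors of start codon selection and subunit joining, Eif5, whose product stimulates GTP hydrolysis by eIF2 at the start codon, was higher by 2 of its 5 kept probe sets. Probe set 1415723_at read 11.22, 11.30 and 11.55 on VAD 25 wk arrays, 11.20, 11.14 and 11.33 on VAD 18 wk arrays, and 10.51, 10.71 and 11.17 on control arrays. All VAD 25 wk values lay above all control values, while the lowest VAD 18 wk value lay just under control replicate 3, the dim control array. The difference was 0.56 ± 0.11 at 25 weeks (1.48-fold, 95% interval 0.33 to 0.80 on the log2 scale, limma adjusted p = 0.00659) and 0.57 ± 0.11 at 18 weeks (adjusted p = 0.0374). Probe set 1433631_at read 9.83, 9.90 and 10.61 on VAD 25 wk arrays, 9.38, 9.17 and 9.48 on VAD 18 wk arrays, and 9.13, 9.22 and 9.87 on control arrays. It differed by 0.71 ± 0.12 at 25 weeks (adjusted p = 0.00341) and by 0.18 ± 0.12 at 18 weeks (adjusted p = 0.511). The groups at 25 weeks overlapped only through the dim control array, and each VAD 25 wk array exceeded its counterparts in or outside the dim pair. The other Eif5 probe sets, 1454663_at, 1454664_a_at and 1456256_at, had differences of -0.06 ± 0.13, 0.10 ± 0.22 and -0.12 ± 0.23 at 25 weeks and none passed.

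The remaining start codon factors did not pass at either time. Eif1a, the scanning factor eIF1A, had 0.08 ± 0.14 at 25 weeks by 1424343_a_at and -0.19 ± 0.15 at 18 weeks, and its X-linked paralog Eif1ax had 0.45 ± 0.31 and -0.18 ± 0.33. Eif1b, a paralog of the start codon fidelity factor eIF1, had 0.07 ± 0.10 and 0.17 ± 0.11. Eif5b, the GTPase that joins the subunits, had 0.43 ± 0.15 at 25 weeks (adjusted p = 0.0801) with 8.22, 8.37 and 7.68 on VAD 25 wk arrays and 7.81, 8.03 and 7.12 on control arrays. Eif1ad, which carries an eIF1A-like domain, had -0.59 ± 0.22 (adjusted p = 0.0937).

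The eIF2 subunits and the other carriers of initiator tRNA, 16 probe sets for 5 genes, gave 0 calls at either time. Of all probe sets, 14.9% were called at 25 weeks and 1.47% at 18 weeks. Differences of the 16 lay between -0.32 and 1.15 at 25 weeks. Eif2s3x and Eif2s3y encode the gamma subunit from the X and the Y chromosome, and in mice the Y-linked copy is needed for spermatogonial proliferation. Eif2s3y 1417210_at read 7.78, 7.51 and 6.77 on VAD 25 wk arrays, 6.85, 6.86 and 7.35 on VAD 18 wk arrays, and 7.10, 7.27 and 7.58 on control arrays. These overlap throughout, and the difference was 0.03 ± 0.25 at 25 weeks and -0.38 ± 0.27 at 18 weeks. Eif2s3x 1421895_at had -0.32 ± 0.27 at 25 weeks and -0.30 ± 0.29 at 18 weeks, while its probe set 1423744_x_at had 0.55 ± 0.34 at 25 weeks, which rests on VAD 25 wk replicate 3, since the difference was 1.77 within the dim pair and -0.06 outside it. Eif2s2, the beta subunit, was brightest by 1417712_at, with -0.21 ± 0.10 at 25 weeks (adjusted p = 0.202) and -0.37 ± 0.11 at 18 weeks (adjusted p = 0.123).

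In eIF2B, the exchange factor that reloads eIF2 with GTP, the gamma and delta subunits were called in opposite directions. Eif2b3, the gamma subunit, named here after its values were seen, read 5.57, 5.49 and 6.07 on VAD 25 wk arrays, 5.39, 5.36 and 5.51 on VAD 18 wk arrays, and 4.86, 4.88 and 5.30 on control arrays by 1434524_at. Both diet groups lay above all control values, and the difference was 0.70 ± 0.20 at 25 weeks (adjusted p = 0.0375) and 0.57 ± 0.21 at 18 weeks (adjusted p = 0.211). Eif2b4, the delta subunit, read 8.79, 8.77 and 9.71 on VAD 25 wk arrays, 9.19, 9.16 and 9.03 on VAD 18 wk arrays, and 9.18, 9.20 and 10.09 on control arrays by 1449940_a_at. Outside the dim pair both VAD 25 wk values lay below both control values, and within it the VAD 25 wk array was also the lower, for a difference of -0.40 ± 0.11 (adjusted p = 0.0331). Without normalization between arrays, where the median of all probe sets lay at 0.93, Eif2b4 stood at 0.52, so its call is a decrease relative to the bulk of the array. Eif2b1, Eif2b2 and Eif2b5, the alpha, beta and epsilon subunits, were not called.

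eIF3, the largest initiation factor, was represented by 11 subunit genes and 22 probe sets, of which 1 was higher and 2 were lower at 25 weeks, beside 8.54% and 6.32% of all probe sets. Eif3a, its largest subunit, differed by probe set. Probe set 1416659_at read 8.11, 8.07 and 9.02 on VAD 25 wk arrays, 7.999, 7.97 and 7.89 on VAD 18 wk arrays, and 7.21, 7.37 and 8.34 on control arrays. Each VAD 25 wk array exceeded the control arrays of its own kind, dim or not, and all VAD 18 wk values exceeded control replicates 1 and 2 but not the dim control array. The difference was 0.76 ± 0.13 at 25 weeks (1.69-fold, adjusted p = 0.0042) and 0.64 ± 0.14 at 18 weeks (adjusted p = 0.0467). The brightest Eif3a probe set, 1448425_at, had 0.09 ± 0.11 at 25 weeks (adjusted p = 0.633) and -0.11 ± 0.12 at 18 weeks, and 1416661_at had -0.76 ± 0.28 at 25 weeks (adjusted p = 0.0932), so the gene has no single direction on this array.

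Eif3b, a scaffold subunit of the eIF3 core, read 9.34, 9.35 and 10.01 on VAD 25 wk arrays, 9.90, 9.85 and 9.57 on VAD 18 wk arrays, and 10.17, 10.10 and 10.24 on control arrays by its only probe set, 1426674_at. All VAD 25 wk and all VAD 18 wk values lay below all control values. Its difference was -0.60 ± 0.14 at 25 weeks (0.658-fold, adjusted p = 0.0158) and -0.27 ± 0.15 at 18 weeks (adjusted p = 0.394), and it stood at 0.30 at 25 weeks without normalization between arrays. Eif3k, a small peripheral subunit, read 8.42, 8.55 and 8.94 on VAD 25 wk arrays, 9.10, 9.01 and 8.85 on VAD 18 wk arrays, and 9.54, 9.18 and 9.16 on control arrays. Again both diet groups lay below control without overlap. The difference was -0.65 ± 0.16 at 25 weeks (adjusted p = 0.0208) and -0.26 ± 0.17 at 18 weeks (adjusted p = 0.48), and 0.29 at 25 weeks without normalization between arrays. The other 19 eIF3 probe sets were not called at 25 weeks, including those of Eif3c, Eif3d, Eif3e, Eif3f, Eif3h, Eif3i, Eif3l and Eif3m.

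The helicase eIF4A and its cofactors had 5 higher and 2 lower calls among 12 probe sets at 25 weeks, beside 8.54% and 6.32% of all probe sets, and 5 of the 7 came from Eif4h alone. Eif4a1 and Eif4a2 encode paralogous forms of the helicase, and both were higher by a probe set. Eif4a2 1450934_at read 9.71, 9.80 and 9.10 on VAD 25 wk arrays, 9.22, 9.48 and 9.57 on VAD 18 wk arrays, and 9.06, 9.16 and 8.50 on control arrays. The VAD 25 wk group overlapped control only through its dim array, which exceeded the dim control array, for a difference of 0.63 ± 0.12 (1.55-fold, adjusted p = 0.00766), and 0.31 ± 0.13 at 18 weeks (adjusted p = 0.273). Eif4a1 1434985_a_at read 7.80, 7.86 and 7.90 on VAD 25 wk arrays, 7.74, 7.85 and 7.81 on VAD 18 wk arrays, and 7.22, 7.32 and 7.32 on control arrays. Both diet groups stood wholly above control, and the differences were 0.57 ± 0.13 at 25 weeks (adjusted p = 0.0172) and 0.53 ± 0.14 at 18 weeks (adjusted p = 0.0919). The dim pair did not stand apart in this probe set. Its other kept probe sets, 1427058_at and 1430980_a_at, had 0.22 ± 0.25 and -0.09 ± 0.29 at 25 weeks.

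Eif4h, a cofactor that stimulates the helicase, had the smallest adjusted p among the members and probe sets called both ways. Probe set 1438554_x_at read 11.10, 11.18 and 9.20 on VAD 25 wk arrays, 10.67, 10.50 and 10.32 on VAD 18 wk arrays, and 9.78, 10.05 and 7.996 on control arrays. Within the dim pair and outside it the VAD 25 wk arrays were higher, and the difference was 1.22 ± 0.12 (2.33-fold, 95% interval 0.95 to 1.49, adjusted p = 0.000364), against 0.58 ± 0.13 at 18 weeks (adjusted p = 0.0509). Probe sets 1451521_x_at and 1416941_s_at were also higher at 25 weeks, by 0.68 ± 0.16 (adjusted p = 0.0188) and 0.63 ± 0.17 (adjusted p = 0.0286). The endings _x_at and _s_at mark probe sets whose probes may match other transcripts.

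The 2 remaining Eif4h probe sets were called lower. Probe set 1447070_at read 6.17, 6.40 and 3.31 on VAD 25 wk arrays, 6.85, 7.11 and 6.72 on VAD 18 wk arrays, and 6.74, 6.93 and 6.98 on control arrays, for a difference of -1.59 ± 0.47 (adjusted p = 0.0423). The size rests on VAD 25 wk replicate 3: within the dim pair the difference was -3.67 and outside it -0.55. Probe set 1442942_at read 2.89, 2.38 and 4.67 on VAD 25 wk arrays, 3.67, 4.15 and 3.75 on VAD 18 wk arrays, and 3.80, 4.02 and 5.42 on control arrays, for -1.10 ± 0.32 (adjusted p = 0.0413). Neither passed with the dim pair left out (adjusted p = 0.0789 and 0.0628). Eif4b, the other cofactor, was not called by any of its 3 probe sets, which had 0.21 ± 0.18, -0.54 ± 0.24 and 0.30 ± 0.16 at 25 weeks.

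**Figure D2:**
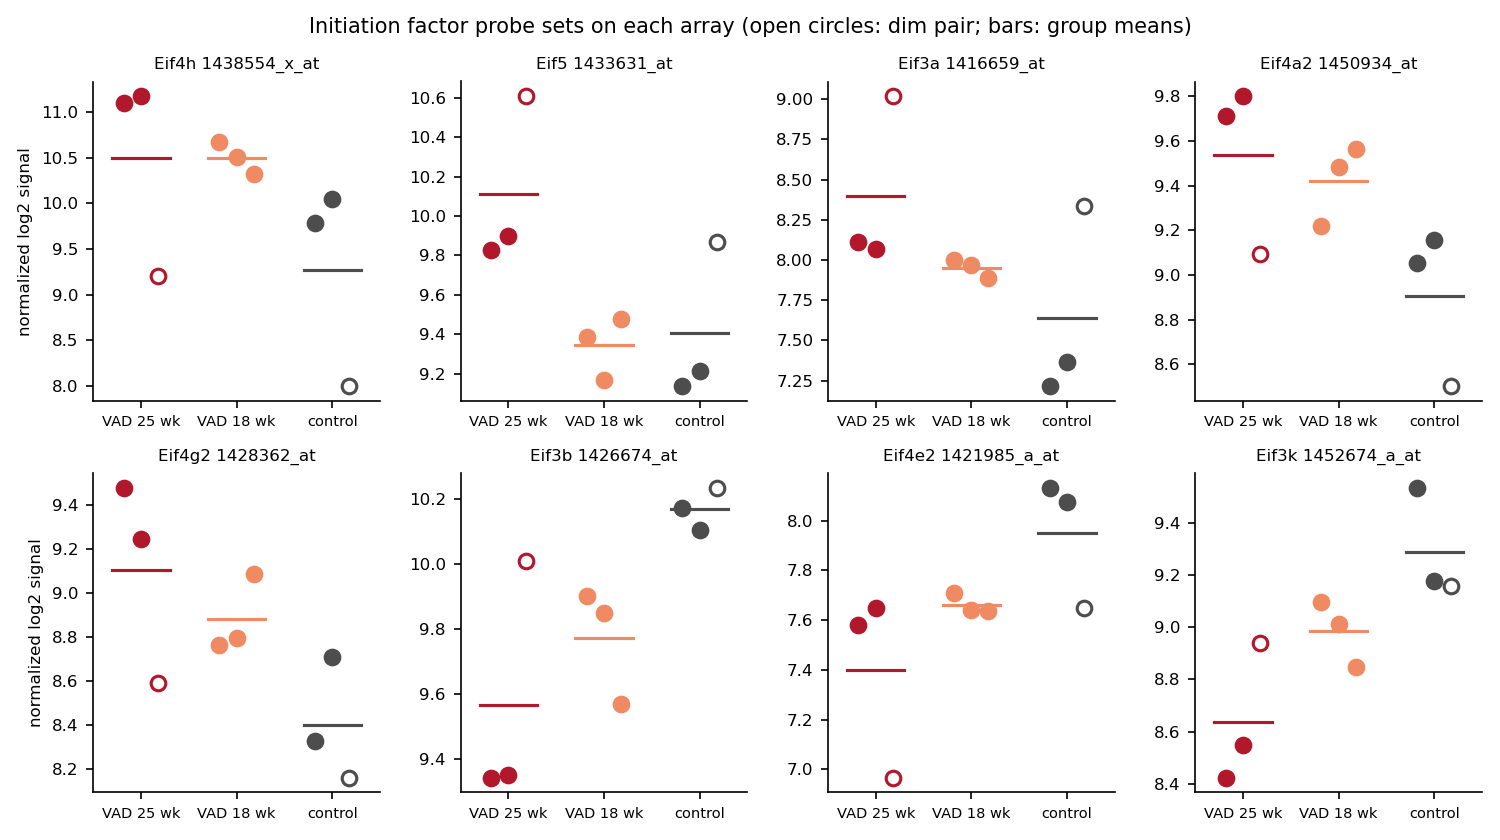
Normalized log2 signal of 8 called probe sets on each array, with VAD 25 wk left, VAD 18 wk in the middle and control right. Points are arrays, bars group means, and open circles the dim pair. The probe sets are those with the smallest p of the first 5 genes called higher and the first 3 called lower at 25 weeks. For Eif4h 1438554_x_at the dim arrays lie below the rest of their groups, for Eif3a 1416659_at above, and in both the VAD 25 wk dim array exceeds the dim control array.

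**Figure D3:**
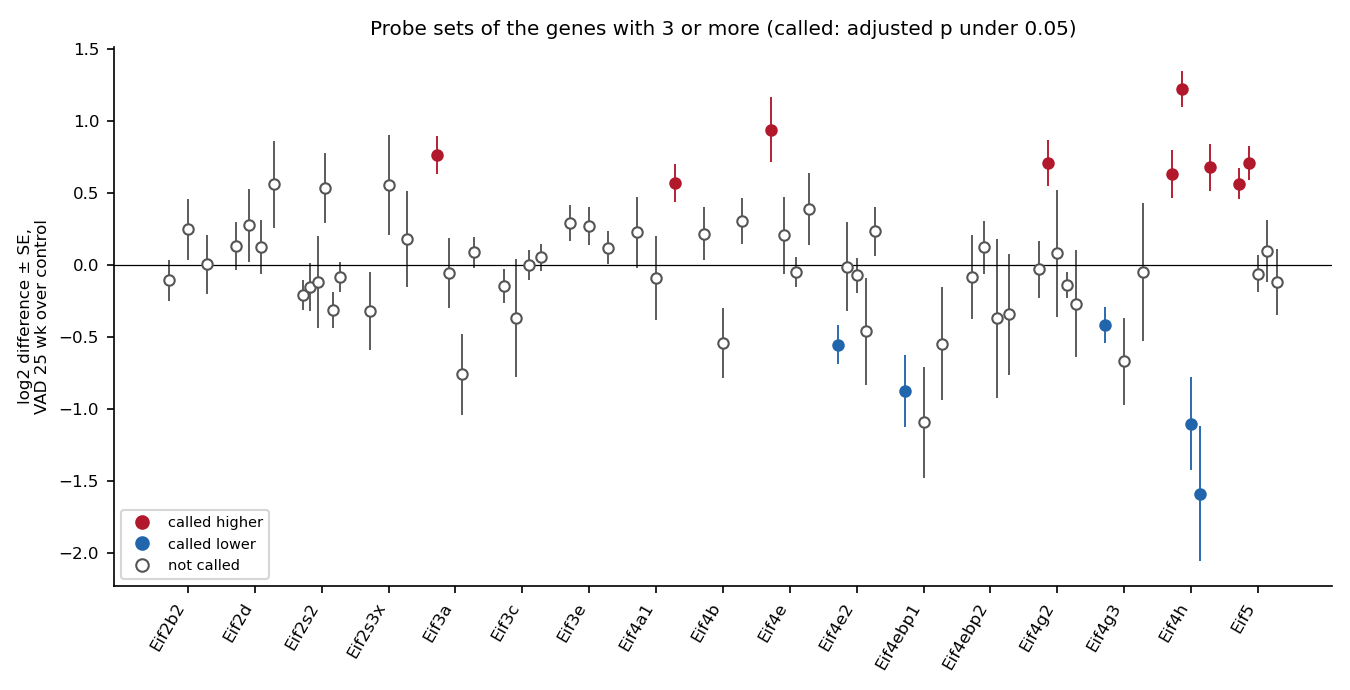
Log2 difference of VAD 25 wk over control with its standard error for every kept probe set of the genes with 3 or more. Red points passed the test as higher, blue as lower, and open points did not pass. Eif4h has probe sets called on both sides of 0, between -1.59 and 1.22.

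Among the cap-binding genes Eif4e and Eif4e2, 1 probe set each was called while the brightest was not. Eif4e, the cap-binding protein, was higher by 1423220_at, which read 7.27, 7.14 and 7.69 on VAD 25 wk arrays, 7.09, 7.23 and 7.79 on VAD 18 wk arrays, and 6.46, 6.64 and 6.18 on control arrays. Both diet groups lay wholly above control, with 0.94 ± 0.23 at 25 weeks (1.92-fold, adjusted p = 0.019) and 0.96 ± 0.24 at 18 weeks (adjusted p = 0.0744). Its brightest probe set, 1450908_at, read 9.99, 9.98 and 9.78 on VAD 25 wk arrays, 10.12, 10.06 and 9.97 on VAD 18 wk arrays, and 10.00, 9.99 and 9.91 on control arrays, for -0.05 ± 0.10 (adjusted p = 0.783). The groups overlapped there, and its 95% interval ran from -0.27 to 0.17.

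Eif4e2, a cap-binding paralog that does not bind eIF4G and acts in repression, was lower by 1421985_a_at. It read 7.58, 7.65 and 6.97 on VAD 25 wk arrays, 7.71, 7.64 and 7.64 on VAD 18 wk arrays, and 8.13, 8.08 and 7.65 on control arrays. All VAD 25 wk values lay below all control values, by the least against the dim control array, and the difference was -0.55 ± 0.14 (adjusted p = 0.0195), with -0.48 ± 0.14 at 18 weeks (adjusted p = 0.129) and 0.47 at 25 weeks without normalization between arrays. Its brightest probe set, 1435803_a_at, had -0.07 ± 0.12 at 25 weeks, and 1455108_at had 0.23 ± 0.17. Eif4e3, a further paralog, had 1.27 ± 0.51 (adjusted p = 0.116), with 4.42, 4.15 and 5.10 on VAD 25 wk arrays, 4.11, 4.22 and 4.30 on VAD 18 wk arrays, and 4.34, 3.64 and 1.88 on control arrays. Its difference was 3.22 within the dim pair and 0.30 outside it.

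Of the scaffolds, Eif4g2, which lacks the eIF4E-binding region of eIF4G, was higher by 1428362_at. It read 9.48, 9.25 and 8.59 on VAD 25 wk arrays, 8.77, 8.80 and 9.09 on VAD 18 wk arrays, and 8.33, 8.71 and 8.16 on control arrays, for 0.71 ± 0.16 at 25 weeks (adjusted p = 0.0136) and 0.30 ± 0.17 at 18 weeks (adjusted p = 0.412). The dim VAD 25 wk array fell within the control range. The Eif4g2 probe sets 1415863_at and 1452758_s_at had -0.03 ± 0.20 and -0.14 ± 0.09 at 25 weeks. Eif4g3, a scaffold required for male meiosis in mice, read 9.57, 9.70 and 9.30 on VAD 25 wk arrays, 9.95, 9.96 and 9.62 on VAD 18 wk arrays, and 10.13, 9.97 and 9.73 on control arrays by 1426833_at. All VAD 25 wk values lay below all control values. The difference was -0.42 ± 0.12 (adjusted p = 0.0425), -0.21 ± 0.13 at 18 weeks (adjusted p = 0.466), and 0.48 at 25 weeks without normalization between arrays.

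Eif4ebp1, the repressor that sequesters eIF4E until mTOR phosphorylates it, was lower by 1417562_at. It read 4.26, 4.54 and 4.13 on VAD 25 wk arrays, 4.91, 4.61 and 4.87 on VAD 18 wk arrays, and 5.38, 5.53 and 4.64 on control arrays. All VAD 25 wk values lay below all control values, and the difference was -0.87 ± 0.25 at 25 weeks (0.545-fold, adjusted p = 0.0381) and -0.57 ± 0.27 at 18 weeks (adjusted p = 0.314). Its other probe sets had -1.09 ± 0.39 and -0.55 ± 0.39 at 25 weeks and were not called, and without normalization between arrays 1417562_at stood at 0.08. Eif4ebp2, its paralog, was not called by any of 4 probe sets, with 0.12 ± 0.18 by the brightest, and Eif4enif1, which carries eIF4E into the nucleus, had 0.07 ± 0.18.

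Eif5a, Eif5a2 and Eif6 were not called. Eif5a, the hypusine-modified factor that acts mainly in elongation, had 0.26 ± 0.10 at 25 weeks (adjusted p = 0.116) and 0.43 ± 0.11 at 18 weeks (adjusted p = 0.0789) by 1451470_s_at, against -0.19 ± 0.14 at 25 weeks by 1437859_x_at, and its paralog Eif5a2 had 0.16 ± 0.29 and 0.71 ± 0.31. Eif6, which keeps free large subunits from joining, had -0.21 ± 0.16 and 0.30 ± 0.17.

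Probe sets of a gene often disagreed. Of the 29 genes with at least 2 kept probe sets, 9 had a called one at 25 weeks, and in 0 of these were all kept probe sets called the same way. In 9 of the 29 genes probe sets lay on both sides of 0 by more than 1 standard error, and the median range of differences within a gene was 0.61. At 18 weeks the range was 0.39, with 6 genes on both sides. The same measures were not computed over all genes of the array, so such disagreement is not shown to be particular to the initiation factors.

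At 18 weeks both calls, Eif5 1415723_at and Eif3a 1416659_at, were also called at 25 weeks, in a comparison that shares the control arrays. Each was lost, with an adjusted p of up to 0.171 for Eif5 and 0.188 for Eif3a, when control replicate 1 or 2, any VAD 18 wk replicate, or VAD 25 wk replicate 1 or 2 was left out. Those fits called 0.137% to 0.696% of all probe sets at 18 weeks, against 1.47% with all arrays. The 102 probe sets not called had differences between -0.87 and 0.96, and 19 members had an unadjusted p under 0.05, of which 15 were higher. How many of all probe sets reached that unadjusted p was not computed.

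The comparison of VAD 25 wk with VAD 18 wk asks whether the longer diet adds to the shorter. None of the 104 members passed (limma, dim pair as a block), 19 had an unadjusted p under 0.05 (7 higher, 12 lower), and the median difference was 0.02, against 0.01 for all. The share of all probe sets under that unadjusted p was not computed, so the 19 are not shown to be particular to the members. The 3 with the smallest p were Eif4h 1438554_x_at with 0.64 ± 0.13 (adjusted p = 0.141), Eif5 1433631_at with 0.53 ± 0.12 (adjusted p = 0.171) and Eif2b2 1434538_x_at with -0.51 ± 0.15 (adjusted p = 0.239). Eif2b2, the beta subunit of eIF2B, read 7.82, 7.58 and 7.38 on VAD 25 wk arrays and 8.23, 8.05 and 8.33 on VAD 18 wk arrays, with no overlap. A probe set called against control at 25 weeks and not at 18 weeks is not shown to differ between the diet times.

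**Figure D4:**
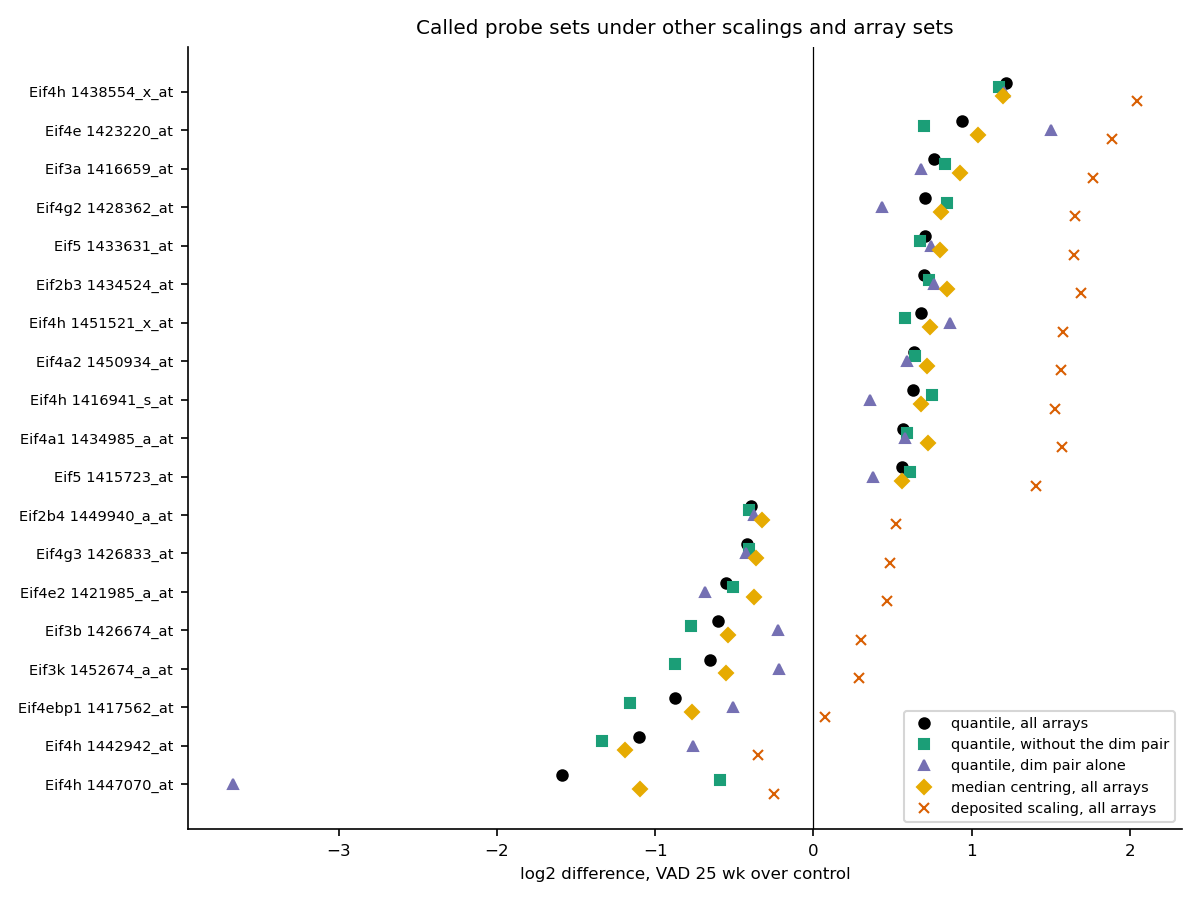
Log2 difference of VAD 25 wk over control for the 19 called probe sets under quantile normalization with all arrays (black), without the dim pair (green), within the dim pair alone (purple), under median centring (yellow) and with the deposited scaling (orange crosses). All differences shift upward with the deposited scaling, and 6 of the 8 lower ones cross 0.

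The sign of 6 of the 8 lower calls depended on the scaling. The array medians spanned 1.558 on the deposited log2 scale, and without normalization between arrays the median difference at 25 weeks was 0.93 for the members and 0.93 for all probe sets. There 102 of the 104 members lay above 0, 50 were called higher (48.1%, background 39.1%) and 0 lower (background 0.0259%). At 18 weeks that scaling called 0 members (background 0.496%), and between the diet times 7 (6.73%, background 6.68%). Of the 8 lower calls, 6 had a positive difference there, while the Eif4h probe sets 1442942_at and 1447070_at stayed negative at -0.35 and -0.25. For 1447070_at the sign rests on the dim pair, with deposited signals of 4.33 on the VAD 25 wk and 42.6 on the control array. On replicates 1 and 2 it read 194.7 and 178.9 for VAD 25 wk against 88.5 and 106.1 for control. Deposited signals of 1442942_at were low, at 10.4, 3.15 and 12.6 on VAD 25 wk arrays and 7.23, 9.40 and 18.3 on control arrays. The 11 higher calls stayed called under that scaling. With median centring all 19 kept their direction and 14 stayed called, among 16 calls in all (15.4%, background 13.4%), and 1 member was called at 18 weeks (background 1.73%). Without the dim pair 12 of the 19 stayed called, among 17 of 102 members then kept (16.7%, background 15.7%), with 3 at 18 weeks (2.94%, background 3.98%) and 2 between the diet times (1.96%, background 1.63%).

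The poly-A arrays are 2 of the 3 VAD 25 wk arrays. With them left out, the 25-week difference becomes that of VAD 25 wk replicate 3 over control replicate 3, 1 array on each side. The block takes up the gap between control replicate 3 and the other control arrays, and the spread comes from the remaining arrays. In that fit 0 of the 19 differences turned direction. Leaving out 1 array at a time, 5 of the 19 were called in every fit, namely both Eif5 probe sets, Eif3a 1416659_at, Eif4a2 1450934_at and Eif4h 1438554_x_at. The other 14 were lost without at least 1 array: 6 of the 19 stayed called without control replicate 1, 6 without VAD 25 wk replicate 1, 8 without VAD 25 wk replicate 2 and 10 without control replicate 2. In that order, these fits called 7.75%, 7.36%, 6.61% and 9.76% of all probe sets, against 14.9% with all arrays. The share of all called probe sets that stayed called in every fit was not computed.

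Genes that act around the initiation factors were read from lists with 1 probe set per gene, for which the share of all genes called was 17.1% at 25 weeks, 1.52% at 18 weeks and 0% between the diet times. At 25 weeks, 1 of 13 measured genes of the eIF2 kinases and stress response was called, Ddit3, a transcription factor induced by eIF2 phosphorylation, with -0.98 ± 0.20 (adjusted p = 0.00821) and 0.09 without normalization between arrays. None of the measured kinases was called. Of 16 elongation and termination factors 1 was higher and 1 lower: Dhps, which starts the hypusine modification of eIF5A, with 0.67 ± 0.20 (adjusted p = 0.0452), and the translocase Eef2 with -0.46 ± 0.10 (adjusted p = 0.0141, and 0.38 without normalization between arrays).

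Among 16 poly(A)-binding proteins, cap kinases and germ cell regulators, 3 were higher and 2 lower. Paip1, a partner of poly(A)-binding protein, had 0.81 ± 0.17 (adjusted p = 0.0102), and Cpeb2, which binds the cytoplasmic polyadenylation element, had 0.85 ± 0.20 (adjusted p = 0.0165). Pabpc4, a poly(A)-binding protein, had -1.17 ± 0.26 (adjusted p = 0.0124), and -0.24 without normalization between arrays. Ddx6, a helicase of mRNA storage granules, was the 1 of 7 scanning and reinitiation genes called, with 0.68 ± 0.15 (adjusted p = 0.0113). In the mTOR pathway 1 of 11 was higher, the eIF4A inhibitor Pdcd4 with 0.54 ± 0.13 (adjusted p = 0.0166), and 1 lower, the mTOR inhibitor Tsc2 with -0.78 ± 0.21 (adjusted p = 0.0307, and 0.22 without normalization between arrays). At 18 weeks 0 genes of these lists were called, and between the diet times 0.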

How the data were processed

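Biotin-labelled cRNA was made from 100 ng of total RNA by 2 rounds of amplification, per the labels' protocols, and hybridised to 9 Affymetrix mouse arrays, 3 a group. The deposited values are intensity values (linear MAS5 signals, per the submitters' processing notes), and whether the authors scaled the arrays to a common target is not given in the sources used here. Repeated amplification favours the 3′ end of transcripts. For arrays the number of arrays limits the precision.

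From the signals, log2(signal + 3.259) was computed, the pseudocount being the 25th percentile of all signals, and the arrays were quantile normalized, so differences are relative to the bulk of each array and those of dim probe sets are understated. Control probe sets (64) were left out, and a filter at the 40th percentile of mean level left 27022. The test was limma's (lmFit, contrasts.fit and trended eBayes; version 3.58.1 under R 4.3.3) on the 9 arrays together, with group and a block for the dim pair (arrays whose 2% trimmed mean is under 0.5 of the median) and 5 residual degrees of freedom, and Benjamini-Hochberg adjustment over all kept probe sets. "Called" means an adjusted p under 0.05. The block came from an earlier analysis of these data in which group alone called 0. The members, the gene and marker lists and the tests were chosen with earlier results of these data known. The fit was run on data simulated from the same model with the block, which cannot show whether the block or the normalization is right.

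Of the probe sets, 34958 had 1 gene symbol, 932 had several and were not named, and the rest had none. Symbols were matched to the RefSeq table on GRCm38.p6, where 34754 of the single-symbol probe sets and all 120 members were found. Named were, per comparison, up to 8 called probe sets a direction with the smallest p (with none called, the 3 with the smallest p), and fixed paralog sets by their brightest kept probe set, with probe sets that disagree; per pathway list, up to 3 called genes. Alternatives were the model without the block, leaving out arrays, other scalings, pseudocounts and filters, no trend, array weights and a replicate block.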

Additional observations from a re-analysis of the deposited data

Results flagged for a closer look

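Eif3a 1448425_at was flagged because its diet groups lay on opposite sides of control. It read 9.33, 9.35 and 9.29 on VAD 25 wk arrays, all above the control values of 9.24, 9.22 and 9.26, and 9.08, 9.11 and 9.21 on VAD 18 wk arrays, all below them. The kept members were searched for this order, and how often it occurs among all probe sets was not computed. Neither difference from control passed. The fitted difference of VAD 25 wk over VAD 18 wk was 0.19 ± 0.12, with a limma adjusted p of 0.562, so it did not pass, and both comparisons share the control arrays.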

How the results depend on the processing

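The counts of called probe sets depend on the model. In the main setting 11 were higher and 8 lower for VAD 25 wk over control, 2 higher and 0 lower for VAD 18 wk over control, and 0 in either direction for VAD 25 wk over VAD 18 wk. With group alone all counts were 0. Without the dim pair they were 9 and 8 at 25 weeks, 3 and 0 at 18 weeks, and 1 and 1 between the diet times. With the deposited scaling they were 50 and 0 at 25 weeks, 0 and 0 at 18 weeks, and 7 and 0 between the diet times, and with median centring 13 and 3, 0 and 1, and 0 and 0. No filter gave 10 and 3 at 25 weeks and 0 and 0 at 18 weeks, the 60th percentile as filter 11 and 7, and 3 and 0. Without a trend in the variance 4 and 2 were called at 25 weeks and 0 and 0 at 18 weeks. Array weights gave 16 and 14, 5 and 0, and 2 and 5. Pseudocounts of 1 and 16 gave 11 and 7, and 12 and 8, at 25 weeks, with 2 higher at 18 weeks under each. Leaving out the 2 poly-A arrays, an alternative chosen after seeing the data, leaves 1 VAD 25 wk array, so its counts are not given. The cause of the changes in these counts was not tested. The members' share called at 25 weeks, set beside that of all probe sets, was 10.8% and 7.25% without a filter. With the 60th percentile it was 19.4% and 22.5%, without a trend 5.77% and 8.85%, and with array weights 28.8% and 24.4%. Pseudocounts of 1 and 16 gave 17.3% and 14.3%, and 19.4% and 15.2%. At 18 weeks the members' share and that of all probe sets were 4.81% and 4.02% with array weights. They were 0% and 0.606% without a filter, 3.23% and 2.71% with the 60th percentile, and 0% and 0% without a trend. Pseudocounts of 1 and 16 gave 1.92% and 1.31%, and 1.94% and 1.41%, at 18 weeks. Between the diet times the shares were 6.73% and 5.74% with array weights.

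Replicate numbers are shared between groups. In the model with group alone the residuals of same-numbered arrays correlated at 0.525, 0.519 and 0.69 in the 3 pairs of VAD 25 wk with control, where number 3 is the dim pair, and at -0.0047 to 0.075 in the other 6. In the model with the dim pair as a block those 3 pairs stood at -0.365, -0.356 and -1, and the highest of 9 was 0.0572. The block makes the residuals of the dim pair cancel, which fixes the -1 and pushes the other 2 values below 0. These values therefore cannot show whether the numbers pair the arrays. The fit used did not take the numbers as pairs. With the replicate block, a fit with fewer residual degrees of freedom, 10 higher and 2 lower were called at 25 weeks. These were 11.5% of members, against 9.62% of all probe sets. It called 0 and 0 at 18 weeks (background 0.0703%) and 0 and 0 between the diet times (background 0%). Leaving out 1 array at a time gave 5 to 11 higher and 0 to 8 lower at 25 weeks, 0 to 3 higher and 0 to 0 lower at 18 weeks, and 0 to 1 in each direction between the diet times. At 25 weeks these fits called 5.71% to 17.5% of members and 6.61% to 15.5% of all probe sets. At 18 weeks they called 0% to 2.91% of members and 0.137% to 3.86% of all probe sets. Between the diet times the ranges were 0% to 1.94% and 0% to 1.44%.

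With the deposited scaling 6 lower calls turned positive at 25 weeks and were not called, Eif2b4 at 0.52, Eif3b at 0.30, Eif3k at 0.29, Eif4e2 at 0.47, Eif4ebp1 at 0.076 and Eif4g3 at 0.48. No other alternative turned the direction of the 19 calls at 25 weeks or the 2 at 18 weeks.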

Other observations

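Probe sets that list an initiation factor beside other genes numbered 6 and were kept out of the counts. The probe set shared by Gm5576 and Eif4a3, the helicase of the exon junction complex, had -0.41 ± 0.14 for VAD 25 wk over control (limma adjusted p = 0.0742) and read 8.26, 8.54 and 8.43 on VAD 25 wk arrays, 8.94, 8.69 and 8.88 on VAD 18 wk arrays, and 9.01, 8.77 and 8.68 on control arrays. All VAD 25 wk values lay below all control values. The 3 probe sets shared by Eif3j2 and Eif3j1 had -0.11 ± 0.32, 0.03 ± 0.27 and 0.04 ± 0.15 at 25 weeks. The probe set shared by Ankhd1 and Eif4ebp3 had 0.16 ± 0.21. The probe set shared by Gm4027, BB287469 and Eif1a had -0.72 ± 0.35 at 25 weeks (adjusted p = 0.188) and -0.55 ± 0.37 at 18 weeks (adjusted p = 0.491). It read 6.49, 6.29 and 6.82 on VAD 25 wk arrays, 6.17, 6.28 and 7.63 on VAD 18 wk arrays, and 7.09, 7.65 and 7.02 on control arrays, so that all VAD 25 wk values lay below all control values and VAD 18 wk overlapped control.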
